A study of Mus musculus with 8 samples.

Results

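The hypoxia response genes examined here were 10 mouse genes chosen by name, Egln3, Ankrd37, Slc2a1, Vegfa, Ndrg1, Bnip3, Ddit4, Pdk1, P4ha1 and Hif1a, out of 17711 genes named by the probes of an Illumina bead array. Their 16 probes were found through the platform's probe annotation. RNA came from distal colon epithelium of 4 wild-type male C57BL/6 mice aged 10 to 12 weeks, with no treatment named in the labels, from which the surface and the base of the crypts were cut out by laser capture microdissection. There were 4 surface samples and 4 crypt base samples, numbered 1 to 4 in each region, and each mouse had given both kinds. The labels do not say that equal numbers mark the same mouse, and a pair below means samples of equal number. Values are log2 signals as deposited, and every difference is surface minus crypt base.

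Cells answer a lack of oxygen through hypoxia-inducible factors (HIFs), dimers of an oxygen-labile alpha subunit such as HIF-1 alpha and the stable partner ARNT. When oxygen is present, prolyl hydroxylases of the EGLN family modify the alpha subunit, and the VHL ubiquitin ligase then marks it for destruction. Without oxygen the dimer binds a short core motif in DNA and raises genes of glucose uptake, glycolysis, vessel growth and mitochondrial restraint. The colon is a known site of steep oxygen gradients, because the lumen is nearly free of oxygen and the epithelium is fed from vessels beneath it.

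Of the 10 genes, 6 were higher at the surface than at the crypt base, namely Egln3, Ankrd37, Slc2a1, Vegfa, Ddit4 and Pdk1, with differences from 0.50 to 1.64 on the log2 scale. None of the 10 was called lower. A further pair of genes, P4ha1 and Ndrg1, were tested and did not pass, and the remaining pair, Bnip3 and Hif1a, were too dim to be tested. A gene was tested where its brightest probe was detected (p under 0.05) on 4 or more of the 8 arrays, which held for 9494 genes. The test was limma with the replicate number as a block and Benjamini-Hochberg adjustment over all 9494 genes at 0.05. In that test 22.2% of all genes passed, 12.1% higher and 10.1% lower at the surface, against 6 of the 8 tested members (75%) higher and 0 lower. The median difference was 0.65 over the 8 tested members and -0.01 over all genes tested, and 7 of the 8 members were above 0 against 47.8% of all genes. The members and the lists below were chosen with earlier results of these data known, so these comparisons are descriptions and no test.

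These calls depended on single samples and on the pairing. Leaving out replicate 1 ended every call in the table, since in limma the lowest adjusted p of any gene was 0.05002. Before adjustment 2512 genes had p under 0.05, and these included the 6 members, with unadjusted p from 0.00113 for Egln3 to 0.0413 for Vegfa. On the array of surface 4, 199 probes deviated by over 2 (log2) from what the other arrays gave as their median, against 6 to 34 probes on any other array. Without replicate 4 the calls of Egln3, Ankrd37 and Slc2a1 remained, 3 of the 6. Over all genes 580 were then higher and 219 lower, against 1147 and 963 with every replicate. Without the replicate block the calls of Egln3 and Slc2a1 remained, 2 of the 6, where 7.25% of all genes were higher and 6.1% lower. In such bulk samples, fewer cells of a type and less RNA per cell cannot be told apart.

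**Figure D1:**
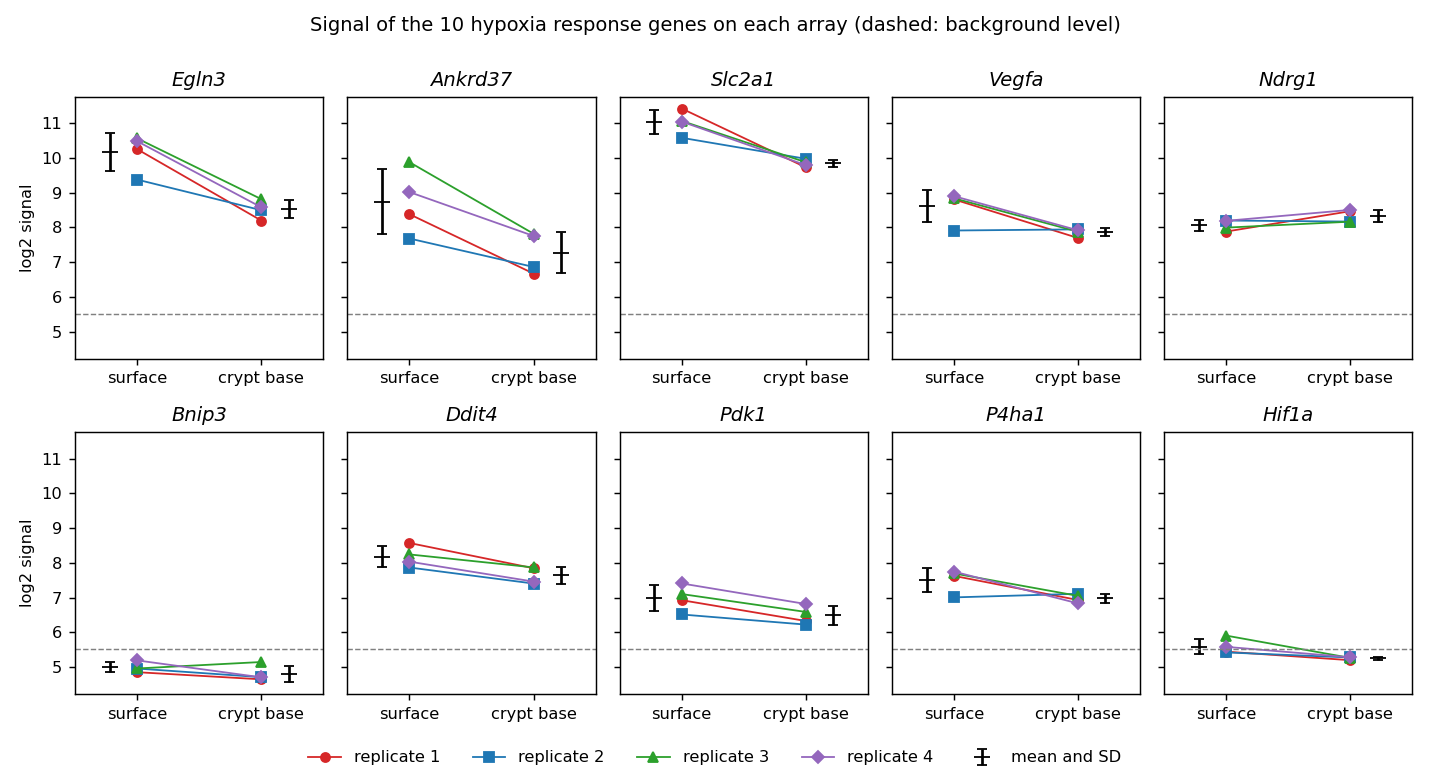
Log2 signal of each of the 10 genes on the 8 arrays, surface at the left and crypt base at the right of each panel. Points of the same replicate number are joined, black marks give the mean and SD (n = 4), and the dashed line is the background level of 5.52. Among the tested members, Egln3 and Slc2a1 show no overlap between the regions, with the surface higher, as did 9.72% of all genes tested. Hif1a, which was too dim to be tested, shows no overlap either. Bnip3 lies under the dashed line on all 8 arrays.

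Promoter windows are shown for the 3 members with the largest differences and for Ddit4, to set the sequence beside the values, and for Bnip3, which held the most motifs of any window of a member. Each window runs from 250 bases before to 50 bases after a gene start in RefSeq (GRCm38.p6), 300 bases in all, and is printed 5′ to 3′ on the gene's strand. Capitals mark every ACGTG and GCGTG on either strand, the core letters to which HIF dimers are known to bind, and neighbouring motifs can overlap.
Egln3 (chr12:54203825-54204124, minus strand): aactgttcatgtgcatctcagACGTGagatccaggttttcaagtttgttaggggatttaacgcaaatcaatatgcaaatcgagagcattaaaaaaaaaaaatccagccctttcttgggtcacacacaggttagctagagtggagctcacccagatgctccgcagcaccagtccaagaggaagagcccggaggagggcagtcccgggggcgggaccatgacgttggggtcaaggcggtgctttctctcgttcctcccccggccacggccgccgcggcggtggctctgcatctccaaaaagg
Ankrd37 (chr8:45999801-46000100, minus strand): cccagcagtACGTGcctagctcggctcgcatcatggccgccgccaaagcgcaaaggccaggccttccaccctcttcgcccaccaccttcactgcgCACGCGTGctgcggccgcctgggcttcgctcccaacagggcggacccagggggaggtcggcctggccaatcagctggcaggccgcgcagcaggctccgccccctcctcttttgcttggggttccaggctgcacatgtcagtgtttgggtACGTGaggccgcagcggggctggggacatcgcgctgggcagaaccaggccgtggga
Slc2a1 (chr4:119108495-119108794, plus strand): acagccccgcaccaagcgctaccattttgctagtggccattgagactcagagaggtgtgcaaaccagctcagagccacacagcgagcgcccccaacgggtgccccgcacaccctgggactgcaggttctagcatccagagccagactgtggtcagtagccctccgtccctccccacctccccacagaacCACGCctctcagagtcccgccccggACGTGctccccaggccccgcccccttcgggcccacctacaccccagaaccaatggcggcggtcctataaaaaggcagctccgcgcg
Ddit4 (chr10:59951721-59952020, minus strand): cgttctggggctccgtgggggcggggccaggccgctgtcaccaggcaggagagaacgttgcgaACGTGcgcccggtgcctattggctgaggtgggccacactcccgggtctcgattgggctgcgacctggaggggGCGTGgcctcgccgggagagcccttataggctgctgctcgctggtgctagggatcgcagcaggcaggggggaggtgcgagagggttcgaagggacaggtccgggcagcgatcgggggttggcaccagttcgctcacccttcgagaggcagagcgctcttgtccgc
Bnip3 (chr7:138909457-138909756, minus strand): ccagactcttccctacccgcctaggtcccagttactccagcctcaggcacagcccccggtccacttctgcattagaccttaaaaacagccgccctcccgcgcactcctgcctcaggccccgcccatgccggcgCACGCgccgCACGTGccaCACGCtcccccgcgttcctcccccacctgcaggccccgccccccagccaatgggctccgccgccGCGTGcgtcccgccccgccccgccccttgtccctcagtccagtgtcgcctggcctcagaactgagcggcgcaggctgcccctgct

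Among the 10 genes 9 had at least 1 such window, 11 windows in all. ACGTG or its reverse complement stood in 8 of the 11 windows (72.7%), against 24.8% of the 9811 windows of genes tested and 23.0% of the 1218 windows of genes that rose. GCGTG stood in 7 of the 11 windows (63.6%), against 47.7% and 45.4% of those same sets. The Egln3 window held 1 motif, at -229 from the start, whereas Ankrd37 held 4, Slc2a1 2, Ddit4 2 and Bnip3 5. Every printed window held an ACGTG. Among windows not printed, a Vegfa window and a Pdk1 window held 0 motifs, and the other Pdk1 window held 0 ACGTG. Vegfa, whose difference was larger than that of Ddit4, was not printed. In the Bnip3 window a pair of the ACGTG matches, one on each strand, share the letters CACGTG, and in Ankrd37 GCGTG occurs on both strands in overlapping letters. The genes were chosen by name as hypoxia genes, the windows of members are few, and a match is a description of letters and not of binding.

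Egln3, the prolyl hydroxylase that is itself a HIF target, had the largest difference of the members. Its signals were 10.25, 9.38, 10.56 and 10.48 at surfaces 1 to 4, against 8.20, 8.50, 8.81 and 8.58 at crypt bases 1 to 4. The regions did not overlap, and surface 2 was the lowest of the surface samples. The mean was 10.17 ± 0.54 at the surface and 8.52 ± 0.26 at the crypt base (SD, n = 4 each). The difference was 1.64 ± 0.20 (SE), or 3.13-fold (adjusted p = 0.00786), and was above 0 in 4 of 4 pairs. It ranked 27 among the rises of all genes, and 99.7% of genes had a smaller difference. Another Egln3 probe, at 7.73 to 8.65 at the surface and 6.61 to 7.05 at the crypt base, gave a difference of 1.47 ± 0.19 (adjusted p = 0.00994 over all probes). Both probes separated the regions without overlap.

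Ankrd37, an ankyrin repeat gene known as a direct HIF-1 target, had signals of 8.38, 7.68, 9.88 and 9.02 at the surface, against 6.67, 6.87, 7.82 and 7.76 at the crypt base. The ranges overlapped slightly, because surface 2 lay under crypt bases 3 and 4. Its difference was 1.46 ± 0.20, or 2.75-fold (adjusted p = 0.00931), and each of the 4 surface samples exceeded the crypt base sample of its own number. In both regions samples 3 and 4 lay above samples 1 and 2. The SD of 0.93 at the surface and 0.59 at the crypt base was the widest of the members in either region. The call was lost when the block was dropped (adjusted p = 0.0761).

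Slc2a1, which encodes the glucose transporter GLUT1, had signals of 11.42, 10.58, 11.06 and 11.04 at the surface, against 9.73, 9.97, 9.87 and 9.79 at the crypt base. The regions did not overlap, and the lowest surface sample was 0.60 above the highest crypt base sample. The difference was 1.18 ± 0.17, or 2.27-fold (adjusted p = 0.0102), and 4 of 4 pairs were higher. Among tested genes 9.72% had all surface samples above all crypt base samples and 9.59% had them all below, and 2 of the 8 tested members, Egln3 and Slc2a1, did the first.

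Vegfa, the growth factor that draws in blood vessels, had signals of 8.81, 7.91, 8.84 and 8.90 at the surface, against 7.70, 7.95, 7.88 and 7.92 at the crypt base. Surface 2 lay within the crypt base range, and the other 3 surface samples lay above it. The difference was 0.76 ± 0.20, or 1.69-fold (adjusted p = 0.0433), and 3 of 4 pairs were higher, pair 2 being at -0.03. The call was lost without the block (adjusted p = 0.0501), without replicate 3 (0.125), without replicate 4 (0.125) and when dim probes were kept in the table (0.0518). Without replicate 2 the difference was 1.02.

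P4ha1, the collagen prolyl 4-hydroxylase subunit, shared that shape. Its signals were 7.63, 7.01, 7.70 and 7.75 at the surface, against 6.93, 7.11, 7.05 and 6.84 at the crypt base, so that surface 2 again lay within the crypt base range. The difference of 0.54 ± 0.17 did not pass (adjusted p = 0.0708). It passed without replicate 2, at 0.75 (adjusted p = 0.00906), with the replicate number as a random block (0.0334) and with array weights (0.0210). Its other probe was detected on 0 of the 8 arrays.

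Ddit4, also called REDD1, an inhibitor of mTORC1 that answers to hypoxia and to glucocorticoids, had signals of 8.57, 7.87, 8.24 and 8.04 at the surface, against 7.85, 7.41, 7.87 and 7.46 at the crypt base. The ranges touched, but each pair was higher, by 0.73, 0.46, 0.37 and 0.57. The difference was 0.53 ± 0.09, or 1.45-fold (adjusted p = 0.0132). The call was lost when the block was dropped (adjusted p = 0.0825) and when replicate 4 was (0.0523).

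Pdk1, the kinase that switches off pyruvate dehydrogenase, had signals of 6.93, 6.52, 7.10 and 7.41 at the surface, against 6.33, 6.23, 6.59 and 6.82 at the crypt base. The ranges overlapped, and the pairs differed by 0.60, 0.29, 0.51 and 0.59. The difference was 0.50 ± 0.09, or 1.41-fold (adjusted p = 0.0147), and this call too was lost with the block dropped (0.148) or replicate 4 left out (0.0587). The probe was detected on 5 of the 8 arrays, although all 8 signals exceeded the background level of 5.52.

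Ndrg1, a stress-responsive gene often used as a hypoxia marker, was the exception in sign. Its signals were 7.88, 8.20, 8.00 and 8.19 at the surface, against 8.47, 8.17, 8.17 and 8.51 at the crypt base. The ranges overlapped and 3 of 4 pairs were lower, with a difference of -0.26 ± 0.11 that did not pass (adjusted p = 0.159). A further Ndrg1 probe gave -0.19 ± 0.11 (adjusted p = 0.272 over all probes). Both probes were detected on all 8 arrays.

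Bnip3, a mitochondrial protein of the BCL2 family that directs mitophagy, lay under the background level. Its 1 probe ranged from 4.86 to 5.20 at the surface and from 4.65 to 5.15 at the crypt base, and was detected on 0 of the 8 arrays. Hif1a, the gene of the HIF-1 alpha subunit, had 3 probes, and the brightest ranged from 5.43 to 5.91 at the surface and from 5.20 to 5.29 at the crypt base. That probe was detected on 2 of the 8 arrays, and the other 2 on 1 and 0. Surface samples of the brightest Hif1a probe lay above all crypt base samples, but 6 of the 8 signals were under the background level and no test was made. HIF-1 alpha is controlled mainly as a protein, which arrays do not measure.

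**Figure D2:**
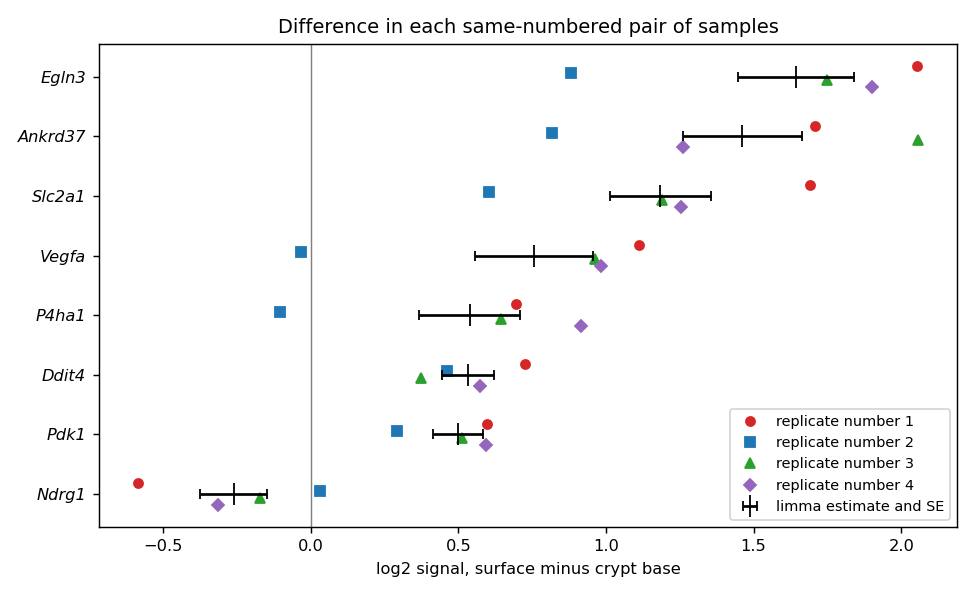
Log2 difference between the surface and crypt base samples of the same replicate number for the 8 tested members, with the limma estimate and its SE in black. The squares of replicate number 2 lie lowest for 6 of the 8 genes and near 0 for Vegfa and P4ha1.

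Surface 2 was low for most members, while the order of the other surface samples differed between them. The highest surface sample was surface 3 for Egln3 and Ankrd37, surface 1 for Slc2a1 and Ddit4, surface 4 for Vegfa, Pdk1 and P4ha1, and surface 2 for Ndrg1. Surface 2 had the lowest surface signal for 7 of the 8 tested members, Ndrg1 being the exception, against 31.2% of all genes tested and 58.4% of the 1147 genes that rose. Pair 2 had the smallest difference for 6 of the 8 (75%), against 31.1% of all genes and 64.4% of those that rose. Among the 6 members that rose, surface 2 was the lowest surface sample for 6 (100%), against 58.4% of all genes that rose. Pair 2 had the smallest difference for 5 of these 6 (83.3%), against 64.4%. Such shares rest on few genes. The median difference of the 8 members was 0.92 in pair 1, 0.38 in pair 2, 0.80 in pair 3 and 0.95 in pair 4. Markers of the surface colonocyte had medians of 1.97, 1.16, 2.35 and 1.86 in pairs 1 to 4, so pair 2 was the smallest there too. Surface 2 was the lowest surface sample for 4 of those 7 markers. The summed linear signal of the colonocyte markers was 14700.3 at crypt base 2, against 6436.1 to 9658.6 at the other crypt bases, and ranged from 19175.1 to 25299.4 at the surface with surface 2 at 25137.1. Guca2a was the brightest of these markers, at a crypt base mean of 12.40 (log2) against 10.50 for the next, Slc26a3. It therefore weighed most in these linear sums. The part of the higher sum at crypt base 2 in the smaller difference of pair 2 was not tested.

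Markers of the captured cells moved with the comparison. All 7 tested markers of surface colonocytes rose and all 5 tested markers of the crypt base and proliferation fell, whereas Krt20, Lgr5 and Ascl2, which define these cells, were detected on no array. Top2a, among the markers that fell, was detected on 4 of the 8 arrays, at 5.33 at the surface and 5.75 at the crypt base. Without the block 5 of the 7 colonocyte markers and 4 of the 5 crypt base markers passed, the calls of Guca2a (adjusted p = 0.169), Car1 (0.0670) and Axin2 (0.0733) being lost. Over 9 epithelial markers the summed linear signal ranged from 12619.9 to 14199.8 at the surface and from 7564.1 to 10093.1 at the crypt base, without overlap. Of the 8 tested 4 rose (50%, against 12.1% of all genes), and 2 of these calls, Krt19 (adjusted p = 0.0874) and Cdx2 (0.653), were lost without the block. Over 6 smooth muscle markers it ranged from 1980.0 to 11450.8 at the surface and from 6272.9 to 24400.5 at the crypt base, and the 5 tested had differences from -1.23 to -0.47 that did not pass. Acta2 was at 11.75 ± 1.01 at the surface and 12.59 ± 0.67 at the crypt base. Among 23 tested markers of fibroblasts, endothelium, leukocytes, red blood cells and smooth muscle together, 2 rose, Col3a1 and Plvap, and 1 fell, Cldn5. Those shares are 8.7% and 4.35%, against 12.1% and 10.1% of all genes. Endothelial sums ranged from 1187.8 to 1452.6 at the surface and from 974.6 to 1314.7 at the crypt base. They were higher at the surface in 4 of 4 pairs, as were the sums of epithelial and of surface colonocyte markers. Fibroblast sums ranged from 1824.4 to 2455.6 at the surface and from 1577.7 to 3121.2 at the crypt base. Leukocyte sums ranged from 1662.6 to 4853.3 at the surface and from 1766.2 to 4358.0 at the crypt base, and red blood cell sums from 167.3 to 404.3 at the surface and from 152.5 to 486.6 at the crypt base. The ranges of the endothelial, fibroblast, leukocyte and red blood cell sums overlapped between the regions. Those of fibroblasts, leukocytes and red blood cells were each higher at the surface in some pairs and lower in others. The leukocyte markers Ptprc and Itgam were detected on no array. The part of cell make-up in the members' differences was not tested.

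Most other genes of the oxygen-sensing machinery did not pass. In a list of 23 genes for HIF partners, hydroxylases, the VHL ligase and coactivators, 15 were tested, of which 2 rose (13.3%), 1 fell (6.67%) and 12 did not pass, with a median difference of 0.01. Vhl, which recognises hydroxylated HIF, rose by 0.41 ± 0.10 (adjusted p = 0.0349), with signals of 6.14 ± 0.20 at the surface and 5.73 ± 0.08 at the crypt base (SD, n = 4 each). Egln1, the main HIF prolyl hydroxylase in most tissues, rose by 0.35 ± 0.08 (adjusted p = 0.0291) but did not pass without the block (0.0519), and at 5.78 at the surface and 5.44 at the crypt base it was close to background. Rbx1, the RING subunit of the ligase, changed by -0.33 ± 0.09 (adjusted p = 0.0486), and its other probe by -0.38. Chosen for their role after their values were seen, Arnt differed by 0.16 ± 0.10, Egln2 by 0.11 ± 0.08 and Hif1an, the asparagine hydroxylase, by 0.18 ± 0.10, none of which passed. The calls of Vhl, Egln1 and Rbx1 were each lost without replicate 1, 3 or 4. Epas1, which encodes HIF-2 alpha, was not analysed here.

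Other genes known as HIF targets rose at the surface in part. Of 51 such genes 38 were tested, of which 13 rose (34.2%, against 12.1% of all genes), 0 fell and 25 did not pass. Their median difference was 0.08, against -0.01 over all genes. This list too was chosen with earlier results of these data known. Mxi1, a MYC antagonist, rose by 1.04 ± 0.14 (adjusted p = 0.00922). Ldha, which turns pyruvate to lactate, rose by 0.998 ± 0.158 to 12.26 ± 0.42 at the surface, against 11.26 ± 0.33 at the crypt base, and Hk2, which traps glucose in the cell, by 0.98 ± 0.15. The other 10 rose by 0.43 to 0.94, the smallest being Pfkp. Its brightest probe was detected on 4 of the 8 arrays, at 5.78 at the surface and 5.35 at the crypt base. The other Pfkp probe differed by 0.18, and the call was lost on the mean of its probes (adjusted p = 0.136). The 25 that did not pass had differences from -0.34 for Tfrc to 0.36 for Kdm3a. Both those that rose and those that did not included genes near background and genes well above it. Named after their values were seen, Bhlhe40 did not pass at 10.17 at the surface and 9.84 at the crypt base, nor did Car9 at 5.61 at the surface and 5.66 at the crypt base, whereas Adm rose at 6.03 at the surface and 5.58 at the crypt base. The count of rises was 10 without the block and 6 each without replicate 3 and without replicate 4. With detection on all 8 arrays required, 10 of 32 tested rose.

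Partners of single members were examined to see whether the rise was shared by their families. Over all genes 12.1% rose and 10.1% fell, against 10% and 0% in the pyruvate dehydrogenase list. The shares were 16.7% and 0% for the Slc2a transporter family, and 0% and 12.5% for VEGF ligands and receptors. Among 10 tested genes of the pyruvate dehydrogenase complex and its regulators 1 rose, Pdp2, a phosphatase that opposes the PDK kinases (0.81 ± 0.13, adjusted p = 0.0134), and 0 fell. Among 6 tested genes of the Slc2a sugar transporter family other than Slc2a1, 1 rose and 0 fell. The rise was in Slc2a13, which encodes a myo-inositol carrier of that family (0.41 ± 0.09, adjusted p = 0.0283, and 0.412 without the block). Among 8 tested VEGF ligands and receptors 0 rose and 1 fell, Nrp2, a co-receptor, by -0.27 ± 0.07 (adjusted p = 0.0445, and 0.169 without the block). The 3 other NDRG genes and the 2 tested collagen hydroxylase genes besides P4ha1 had differences from -0.28 to 0.10, and none passed.

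Among 11 tested genes around mTORC1, the growth kinase that Ddit4 restrains, 0 rose and 3 fell (27.3%, against 10.1% of all genes). Eif4ebp1, a translation repressor and mTORC1 substrate, changed by -0.53 ± 0.10 (adjusted p = 0.0184). Akt1s1, an inhibitory subunit, changed by -0.48 ± 0.10 and Mlst8, a core subunit, by -0.45 ± 0.11, and neither passed without the block (adjusted p = 0.107 for each). The other Mlst8 probe differed by 0.08. Among 12 tested mitophagy genes 4 rose (33.3%, against 12.1% of all genes) and 0 fell. Sqstm1, which encodes the cargo receptor p62, rose by 0.99 ± 0.14 (adjusted p = 0.00997). Bnip3l, the close relative of Bnip3, rose by 0.48 ± 0.12 (adjusted p = 0.0331) and Gabarap by 0.48 ± 0.09 (0.0169), and neither passed without the block (0.139 and 0.111). Bnip3l was at 9.47 ± 0.40 at the surface and 8.98 ± 0.15 at the crypt base. It is also counted among the 13 other HIF targets that rose.

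**Figure D3:**
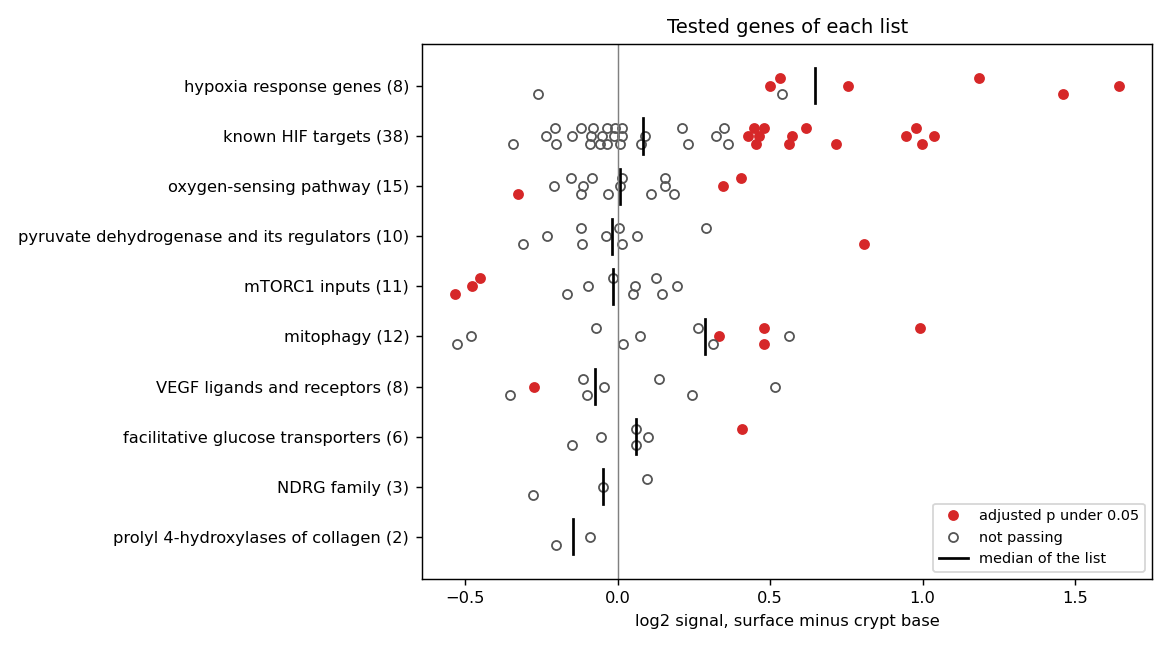
Log2 difference between surface and crypt base for each tested gene of 10 lists, with the number tested in brackets and the list median as a bar. Filled points passed an adjusted p of 0.05. In the members 6 of 8 points are filled and in the other HIF targets 13 of 38, all of them to the right of 0.

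**Figure D4:**
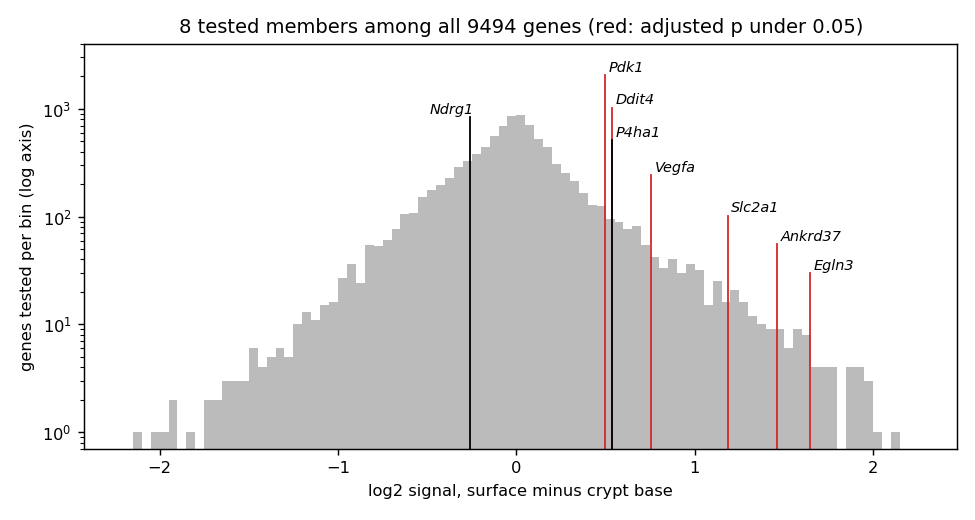
Histogram of the log2 difference between surface and crypt base for the 9494 genes tested, on a log count axis, with a line for each of the 8 tested members. Red lines passed the test, and Egln3, Ankrd37, Slc2a1 and Vegfa lie above the 95th percentile of all genes, 0.68.

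The genes whose pattern over the 8 arrays was most like that of Egln3 were Mxi1 (Pearson r = 0.990), Radx (0.989) and 2210407C18Rik (0.987). This is a description over 8 arrays that share the difference between the regions. The differences were 1.42 ± 0.17 for Radx and 1.08 ± 0.13 for 2210407C18Rik. Mxi1 was also the largest rise among the other HIF targets, and all 3 passed without the block, at adjusted p of 0.0119 for Mxi1, 0.00826 for Radx and 0.00878 for 2210407C18Rik.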

How the data were processed

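Per the labels' protocols, RNA was amplified in successive rounds and labelled with biotin for Illumina arrays. The deposited log2 values (46632 probes, 8 arrays) came through GenomeStudio, per the submitters' processing notes, with no version. The array medians differ by at most 0.0016, so the values had been normalized, by a step not given in the sources used here. The deposited detection p-value served only to count arrays per probe, and the 8 signal columns beside it, whose names fit none of the samples, were set aside. Between 15061 and 16449 probes (32.3% to 35.3%) were detected per array. As many signals exceeded a log2 value of 5.52 as were detected, and that is the background level. The number of arrays limits the precision.

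Probes with 1 gene symbol (29976, of which 29921 matched RefSeq GRCm38.p6) were used, 10 with several and 16646 with none were left out, and each gene took its brightest probe over all arrays. The fit was limma 3.58.1 in R 4.3.3 (lmFit, eBayes, two-sided) with replicate as a fixed block, 3 residual and 3.09 prior degrees of freedom. The fit was tested on simulated data, with 50 changed genes at each size. It called 36% of those with a true difference of 0.5, 78% at 1, 94% at 1.5 and 82% at -1. There were 6 false calls. Deviations from group means, across genes, correlated at 0.45, 0.39, -0.04 and 0.48 for numbers 1 to 4. Unlike numbers ranged from -0.49 to 0.31, and surface 2 with crypt base 3 (0.31) and surface 3 with crypt base 2 (0.27) were above number 3's own value. The labels do not say that the number marks the mouse, and these values do not show it for number 3. The design text gives both samples to each mouse, and pairing them by equal number was assumed. The array of surface 4 had 199 probes more than 2 from the median of the others, against 6 to 34 elsewhere.

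All members were named with every sample's value. From each further list the largest rises and falls past the threshold were named, up to 3 each, and the 3 genes most correlated with the member of the largest rise. The members and lists were chosen with earlier results of these data known. Alternatives changed the block, normalization, probe choice, dim-probe filter, variance model and replicates, and a test of each probe separately was added after seeing the data.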

Additional observations from a re-analysis of the deposited data

Results flagged for a closer look

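In 28 groups of 4 signals of the members' probes, 4 held a sample set apart from the other 3 beyond the critical value of Dixon's test. Chance alone sets apart about 1 in 20 such groups. Vegfa at surface 2 was 7.91, against 8.81 for the next surface sample. P4ha1 at surface 2 was 7.01, against 7.63 for the next. Both fall in the same sample, and without replicate 2 the difference was 1.02 for Vegfa and 0.75 for P4ha1. Bnip3 at crypt base 3 was 5.15, against 4.72 for the next crypt base sample, with all of its signals under background. The dimmer probe of Pdk1, not used above, was 4.65 at surface 4, against 5.32 for the next surface sample, and it was detected on 1 of the 8 arrays.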

How the results depend on the processing

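No tested member changed the sign of its difference under any alternative run. Without the replicate block the count of members that rose was 2 instead of 6, with adjusted p of 0.0501 for Vegfa, 0.0761 for Ankrd37, 0.0825 for Ddit4 and 0.148 for Pdk1 in limma. Over all genes, 688 were higher and 579 lower without the block, against 1147 and 963 with it, and there was 1 oxygen-sensing rise and 0 falls among markers of other captured cell types. Leaving out each replicate in turn, the members that rose numbered 0 to 7 and those that fell 0, all genes 0 to 1157 higher and 0 to 1146 lower, oxygen-sensing genes 0 to 2 higher and 0 to 1 lower, other HIF targets 0 to 13 higher and 0 to 1 lower, and markers of other captured cell types 0 to 5 higher and 0 to 5 lower. Every one of these counts was 0 without replicate 1, where the lowest adjusted p of any gene was 0.05002 in limma. Each of these runs held the same number of samples, and without replicate 2 the members that rose numbered 7. The cause was not tested. Requiring detection on all 8 arrays left 1 oxygen-sensing rise, since Egln1 was then not tested. Rbx1 was no longer called under cyclic loess, with dim probes kept or with a variance trend, which gave 0 falls in that list. Markers of other captured cell types rose in 4 genes with a random block and in 5 with array weights, where 3 fell, against 2 and 1. P4ha1 passed with a random block, with array weights and without replicate 2. Low signal limits Bnip3 and Hif1a.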

Other observations

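Genes that have been tied to HIF in the intestinal barrier, a list apart from those above, moved in both directions. Of 9 listed, 4 were tested, of which 3 rose (75%) and 1 fell (25%), against 12.1% and 10.1% of all genes. Nt5e, the surface enzyme that makes adenosine, rose by 0.96 ± 0.14 (adjusted p = 0.0104 in limma), with a signal of 6.87 ± 0.24 at the surface and 5.91 ± 0.14 at the crypt base (SD, n = 4 each). Tff3, a trefoil peptide of goblet cells, rose by 0.91 ± 0.09 (adjusted p = 0.00739), and its pairs ranged from 0.78 in pair 3 to 1.12 in pair 1. Ckmt1, the mitochondrial creatine kinase, rose by 0.63 ± 0.09 (adjusted p = 0.0100), whereas the cytosolic creatine kinase gene Ckb changed by -0.79 ± 0.22 (adjusted p = 0.0485). Neither creatine kinase gene passed without the block (adjusted p = 0.0658 and 0.332). The Ckb call was also lost with the replicate number as a random block (adjusted p = 0.145). Pairs 1 to 4 of Ckb were at -0.849, -1.212, 0.055 and -1.169. The medians of the tested smooth muscle markers in those pairs were -1.14, -1.44, 0.25 and -1.18. The part of captured smooth muscle in the Ckb difference was not tested. Cldn1 and Abcb1a were too dim to test.

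Of 5 tested genes known to answer to glucocorticoids, which also raise Ddit4, 3 rose (60%, against 12.1% of all genes) and 0 fell. Sgk1, a kinase of sodium transport, rose by 1.26 ± 0.16 (adjusted p = 0.00869), Dusp1, a phosphatase of the immediate early class, by 1.11 ± 0.25 (0.0270) and Fkbp5, a chaperone of the receptor, by 0.72 ± 0.14 (0.0189). Without the block Dusp1 (0.209) and Fkbp5 (0.177) did not pass. The receptor gene Nr3c1 was detected on 0 of the 8 arrays.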
